A study of Mus musculus with 9 samples.

Results

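The Sprouty, Spred and Etv genes examined here are Spry1, Spry2, Spry4, Spred1, Spred2, Spred3, Etv1, Etv4 and Etv5, taken by gene symbol, 9 of the 35275 genes in the deposited table. They were chosen with earlier results of these data known. Of these 9 genes, 8 passed the filter on low counts and were tested among 13082 genes in all, and Etv1, with 0 to 5 counts per library, was not. Wild type C57Bl/6 mouse embryonic fibroblasts (MEFs) were left in iso-osmolar medium (300 mOsm), or subjected for 3 h to low-intensity hyperosmotic stress (500 mOsm, 200 mM added sucrose) or high-intensity hyperosmotic stress (600 mOsm, 300 mM added sucrose), and their poly-T enriched RNA was sequenced as 3 libraries per treatment. All 3 groups share the strain and the serum-containing medium, no gene was targeted, and the cells are a line maintained in culture. No source used here says that the 3 libraries of a treatment came from separate cultures, so the p-values measure the spread between these libraries, which may be technical.

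Growth factor receptors pass their signal through Ras, Raf and MEK to the kinase ERK, and ERK signalling raises transcription of genes that in turn restrain it. Sprouty and Spred proteins are such feedback inhibitors: Sprouty proteins act between the receptor and Raf, and Spred proteins bring the Ras GTPase-activating protein neurofibromin to the membrane. Etv1, Etv4 and Etv5 form the PEA3 group of ETS transcription factors, which carry ERK signals to growth and migration genes in mesenchymal cells, and their mRNAs are widely read as a measure of ERK output.

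Promoter windows of 300 bases, from 250 before to 50 after the start site, were read from RefSeq on GRCm38.p6 for 7 of the 9 genes, in 9 windows. They are shown for genes whose mRNA fell in different treatments below: Etv5, Spred1 and Spred2 (both intensities) and Spry2 (high intensity), and for Spred3, which holds a longer motif. Each is written 5′ to 3′ on the strand of the gene, and capitals mark TGAATG (the core of some octamers that the ERK-sensitive repressor Capicua binds), GGAAGT (the ETS core) and GGGCGG (the GC box), on either strand. The Etv5, Spry2 and Spred3 genes are on the minus strand, and the Spred1 and Spred2 genes on the plus strand.
Etv5 chr16:22438319-22438618: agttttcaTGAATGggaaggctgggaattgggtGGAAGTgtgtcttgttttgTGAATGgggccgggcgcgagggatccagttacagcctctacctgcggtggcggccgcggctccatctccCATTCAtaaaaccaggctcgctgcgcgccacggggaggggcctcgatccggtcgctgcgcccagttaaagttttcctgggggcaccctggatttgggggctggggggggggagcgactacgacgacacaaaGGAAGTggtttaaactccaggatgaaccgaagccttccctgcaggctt
Spred3 chr7:29168598-29168897: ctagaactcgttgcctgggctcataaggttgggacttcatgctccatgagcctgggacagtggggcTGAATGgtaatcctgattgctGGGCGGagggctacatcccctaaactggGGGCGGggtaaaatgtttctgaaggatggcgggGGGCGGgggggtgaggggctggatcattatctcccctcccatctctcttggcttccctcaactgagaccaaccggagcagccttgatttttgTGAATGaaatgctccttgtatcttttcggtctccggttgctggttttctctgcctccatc
Spred1 chr2:117120821-117121120: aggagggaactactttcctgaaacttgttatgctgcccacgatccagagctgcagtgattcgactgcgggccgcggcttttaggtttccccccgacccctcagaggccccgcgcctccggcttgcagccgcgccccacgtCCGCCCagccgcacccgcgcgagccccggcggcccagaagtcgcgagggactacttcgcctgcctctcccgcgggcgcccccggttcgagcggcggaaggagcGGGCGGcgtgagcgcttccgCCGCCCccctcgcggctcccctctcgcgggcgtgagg
Spred2 chr11:19924192-19924491: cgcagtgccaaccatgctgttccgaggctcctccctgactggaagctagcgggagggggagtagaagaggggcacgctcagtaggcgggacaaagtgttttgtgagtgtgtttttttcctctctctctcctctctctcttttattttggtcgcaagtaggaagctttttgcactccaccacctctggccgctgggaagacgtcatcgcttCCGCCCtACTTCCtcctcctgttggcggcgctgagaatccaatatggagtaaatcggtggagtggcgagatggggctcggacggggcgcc
Spry2 chr14:105896770-105897069: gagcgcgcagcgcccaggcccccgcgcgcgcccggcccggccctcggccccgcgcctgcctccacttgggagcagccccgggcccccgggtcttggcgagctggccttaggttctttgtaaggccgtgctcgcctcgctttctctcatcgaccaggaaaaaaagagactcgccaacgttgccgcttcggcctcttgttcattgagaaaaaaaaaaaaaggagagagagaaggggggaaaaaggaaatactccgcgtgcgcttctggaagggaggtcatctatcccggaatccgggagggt

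The motifs were chosen after these sequences had been seen, so their matches are a description. No window was read for Etv4 or for Spry4, the member with the largest falls below. Nothing can be said here of motifs at those genes. This Etv5 window, at the more downstream of its pair of annotated starts, held 3 TGAATG matches, at -242, -198 and -129 bases from the start site, and 0.17% of the 32851 windows of all genes held 3 or more. The Spred3 window held 2 TGAATG matches, and the one at -10 extended to the octamer TGAATGAA, which 1.3% of all windows held. The start site of this Spred3 window, at 29168647, lies inside the annotated gene, whose 5′ end on the minus strand is at 29169841. TGAATG was found in 12.7% of all windows, GGAAGT in 23.8% and GGGCGG in 35.7%. GGAAGT stood in the Spred2 window at -33, in the same Etv5 window at -217 and 2, and in 1 of the Etv1 windows. The GC box was found in windows of Etv5, Spred1, Spred2, Spred3 and Spry1. None of the motifs searched was found in the Spry2 window, and none of the 9 windows held TGAATGGA (1.21% of all windows), the longer ETS site CCGGAAGT (3.89%), the AP-1 site TGANTCA (7.81%), the cyclic AMP element TGACGTCA (1.79%), the Egr site GCGTGGGCG (0.612%), a serum response CArG box (1.63%) or a tonicity element (4.96%). Capicua sites were searched only as TGAATG, TGAATGAA and TGAATGGA. Other forms of its octamer were not looked for. The Spry2 window holds ttcattga, which on the other strand is TGAATGAA with C in place of G at base 2. That form was not among those searched, so the Spry2 window cannot be said to lack a Capicua site.

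The libraries held 21716042 to 26740832 counts on genes, and a detection limit of 3 counts, which covers counting error only, came to 0.112 to 0.138 CPM (counts scaled to the library size). CPM values below are normalized by TMM, and those of different genes are compared only as FPKM, the deposited value per length. Markers of fibroblasts were expressed as labelled, 13 of 15 above 1 CPM in each treatment, with Lum and Dcn at or near 0, and their summed level ran from 17872 to 19306 CPM across iso-osmolar libraries, 17232 to 18417 CPM with 500 mOsm and 20309 to 22495 CPM with 600 mOsm. Summed over 7 genes, endothelial markers ranged over 0.778 to 0.911 CPM in the iso-osmolar libraries, 12.0 to 13.4 CPM in the 500 mOsm libraries and 2.43 to 3.36 CPM in the 600 mOsm libraries, with Tie1 at 0 throughout. Pecam1 made up most of this, at 0.279, 11.1 and 1.67 CPM, while Cdh5 was at 0.554, 0.568 and 0.751 CPM. The 7 epithelial markers summed to 0.205 to 0.491, 4.04 to 4.84 and 0.348 to 0.628 CPM in the same order, with Krt5 at 0 throughout, and Cdh1 alone went from 0.0137 to 3.47 CPM at 500 mOsm and 0.0944 CPM at 600 mOsm. Macrophage markers (6 of 7 in the table) summed to 32.5 to 46.6 CPM. Neural markers summed to 11.4 to 20.3 CPM with Snap25 at 0, mostly from Map2 (11.3, 14.1 and 13.6 CPM in the same order). Muscle markers summed to 47.4 to 53.5 CPM with Myog at 0. Nearly all of the muscle sum was Tnnt2, at 52.7, 52.8 and 49.1 CPM, the only muscle marker above 1 CPM. The part of these markers in the results was not tested. Genes with any count numbered 16452 to 16871 in the iso-osmolar libraries, 18920 to 19222 at 500 mOsm and 17846 to 18031 at 600 mOsm. Over all 13082 genes, 1931 were lower and 1728 higher with 500 mOsm than with the iso-osmolar control, and 2250 were lower and 1560 higher in the 600 than in the 500 mOsm libraries. Correcting each library for the GC content and length of transcripts, an alternative added after the data were seen, turned these splits to 3576 against 1594 and to 1761 against 3669, so calls of members that it ends or makes are given at each member.

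At low intensity Spry4, Spred1, Spred2 and Etv5 fell, and at high intensity those 4 genes fell together with Spry2 and Spred3. Neither Etv4 nor Spry1 passed the test in any comparison, and no member rose. In the test of 500 mOsm against iso-osmolar medium, 4 of 8 were lower and 0 higher at an adjusted p under 0.05, where 14.8% of all genes tested were lower and 13.2% higher. At 600 mOsm 6 of 8 were lower and 0 higher, against 20.0% and 15.1% of all genes. Between the 2 intensities, tested directly, 4 of 8 (Spry2, Spred1, Spred2 and Etv5) were lower at 600 mOsm and 0 higher, against 17.2% and 11.9% of all genes. The members' median log2 fold change was -0.38, -0.97 and -0.36 in the 3 comparisons, beside 0.01 over all genes tested in each. The 4 genes lower than iso-osmolar at both intensities are set against 9.12% of all genes lower in both, and both comparisons share the iso-osmolar libraries. In RNA from whole cultures, fewer cells expressing a gene and less RNA per cell cannot be told apart.

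**Figure D1:**
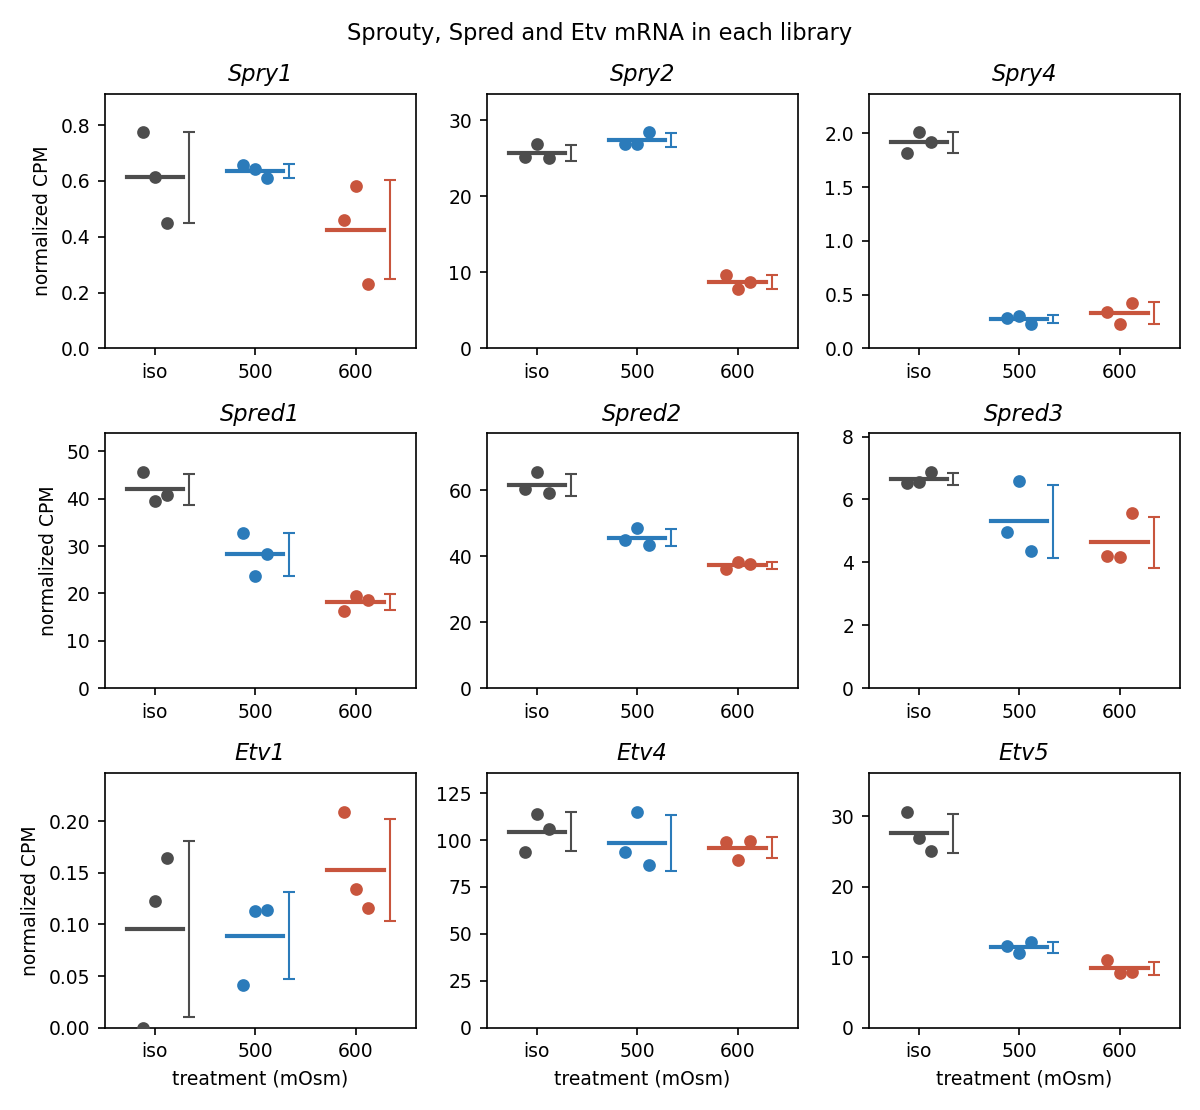
Normalized CPM of each of the 9 genes in the 9 libraries (points), with the mean of each treatment (horizontal line) and the SD (bar at the right, n = 3). Spry2 is low only in the 600 mOsm libraries, at 7.79 to 9.71 CPM, whereas Spry4 and Etv5 are low in the libraries of both intensities.

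In the Sprouty family Spry4 fell at both intensities, Spry2 fell at high intensity and did not pass at low intensity, and Spry1 did not pass at either. Spry2 lies on chromosome 14 (mm10, 105891949 to 105896819, minus strand) and is the most abundant family member here. Its normalized level was 25.2, 26.9 and 25.0 CPM in the iso-osmolar libraries, 26.9, 26.9 and 28.4 CPM at 500 mOsm and 9.71, 7.79 and 8.74 CPM at 600 mOsm. Every 600 mOsm library lay far below all others, while the lowest 500 mOsm and highest iso-osmolar libraries were alike to within rounding. Between 500 mOsm and iso-osmolar medium the log2 fold change of Spry2 was 0.09 (SE 0.08, 95% interval -0.08 to 0.27, edgeR adjusted p = 0.449). At 600 mOsm Spry2 fell by 1.55 on the log2 scale against iso-osmolar medium (SE 0.09, edgeR adjusted p = 7.41e-08), to 34.1% of its level. The direct comparison of 600 with 500 mOsm gave a log2 fold change of -1.65 (SE 0.09, edgeR adjusted p = 3.51e-08).

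Spry4, on chromosome 18 (38586268 to 38601268, minus strand), is an inhibitor of the same pathway that was much less abundant. Its counts were 40, 49 and 47 in the iso-osmolar libraries, 7, 8 and 6 at 500 mOsm, and 8, 5 and 11 at 600 mOsm. Libraries of both intensities lay below every iso-osmolar library and overlapped each other. The fall from 1.92 ± 0.0931 CPM (SD, n = 3) was to 0.272 ± 0.0385 CPM at 500 mOsm, a log2 fold change of -2.79 (SE 0.27, edgeR adjusted p = 5.31e-06), and 0.115% of all genes tested had a lower log2 fold change. At 600 mOsm it was -2.51 (SE 0.26, edgeR adjusted p = 1.30e-05). The difference between the intensities did not pass, as the log2 fold change of 600 against 500 mOsm was 0.28 with a wide 95% interval of -0.50 to 1.06 (edgeR adjusted p = 0.65). On the scale of log2(FPKM + 1) the same falls read only -0.42 and -0.41, a scale that understates changes of genes with low values, and both still passed. Opposite-strand Gm27369 and Gm27804 overlap the gene by 71 and 119 bases and are not in the table, and the strand setting of the counting is not given in the sources used here.

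Spry1 (chromosome 3, 37639947 to 37644598, plus strand) gave 11 to 17 counts per library in the control, 16 to 17 at 500 mOsm and 6 to 13 at 600 mOsm. Its treatments overlapped, except that every 600 mOsm library was below every 500 mOsm library, and no comparison passed the test. The log2 fold changes were 0.06 (SE 0.33, edgeR adjusted p = 0.919) at 500 mOsm and -0.54 (SE 0.36, 95% interval -1.32 to 0.25, edgeR adjusted p = 0.277) at 600 mOsm against iso-osmolar medium. Changes of the size seen for Spred1 were within these intervals and were not detectable at this depth. Opposite-strand Gm42922 overlaps Spry1 by 710 bases.

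Per length, Spry2 made up most of the family's RNA, at 95.1% ± 0.341 of summed Sprouty FPKM in the control, 97.8% ± 0.182 at 500 mOsm and 94.9% ± 1.24 at 600 mOsm (SD, n = 3). The summed level was 13.0 ± 0.378, 13.5 ± 0.523 and 4.38 ± 0.421 FPKM. Spry4 was 3.22% of the sum in the control and 0.444% at 500 mOsm, so its fall there hardly shows in the sum.

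**Figure D2:**
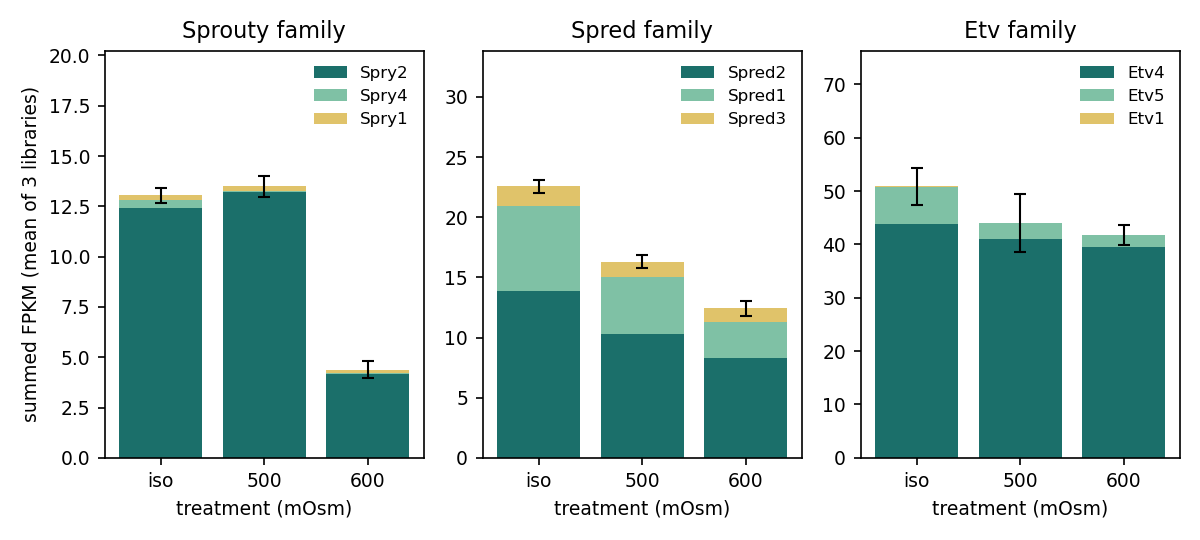
Stacked bars of mean FPKM per gene in each family by treatment (n = 3 libraries), with the SD of the summed FPKM as black bars. Summed Sprouty FPKM is 13.0, 13.5 and 4.38 from left to right, so that the last bar stands apart, summed Spred FPKM steps through 22.6, 16.3 and 12.4, and Etv4 fills most of the Etv bars.

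In the Spred family the 2 abundant members stepped down with intensity. Spred1 (chromosome 2, 117121374 to 117182279, plus strand), which recruits neurofibromin to Ras, was at 45.6, 39.5 and 40.7 CPM in the iso-osmolar libraries, 32.7, 23.7 and 28.3 CPM at 500 mOsm and 16.2, 19.5 and 18.6 CPM at 600 mOsm. No library of a treatment overlapped those of another. At 500 mOsm Spred1 fell by 0.57 on the log2 scale (SE 0.11, edgeR adjusted p = 0.00156), to 67.3% of its iso-osmolar level, and at 600 mOsm by 1.21 (SE 0.11, edgeR adjusted p = 5.36e-06), to 43.2%. The step between the intensities was -0.64 (SE 0.11, edgeR adjusted p = 0.00107).

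Spred2 (chromosome 11, 19924375 to 20024026, plus strand), a close relative of Spred1 with the same role, changed less, from 60.4, 65.5 and 59.1 CPM in the iso-osmolar libraries to 44.9, 48.5 and 43.4 CPM at 500 mOsm and 36.1, 38.2 and 37.6 CPM at 600 mOsm. Again the treatments were fully separate. Its log2 fold change was -0.44 at 500 mOsm (SE 0.06, edgeR adjusted p = 1.93e-04) and -0.73 at 600 mOsm (SE 0.06, edgeR adjusted p = 3.34e-06). Between the intensities it was -0.29 (SE 0.06, edgeR adjusted p = 0.00464), and this call ended under the GC content and length correction (-0.13, edgeR adjusted p = 0.112).

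Spred3 (chromosome 7, 29158829 to 29169841, minus strand), the family member whose Kit-binding domain is not functional, was the least abundant. Its level was 6.51, 6.56 and 6.87 CPM in the iso-osmolar libraries, 4.96, 6.60 and 4.35 CPM at 500 mOsm and 4.19, 4.16 and 5.57 CPM at 600 mOsm. Replicate 2 at 500 mOsm was within the iso-osmolar range, whereas every 600 mOsm library was below it. The log2 fold change at 500 mOsm was -0.32 (SE 0.16, edgeR adjusted p = 0.161), and it passed without replicate 2 at 500 mOsm (-0.53, adjusted p = 0.0256) and under the GC content and length correction (-0.45, adjusted p = 0.0187). At 600 mOsm it was -0.51 (SE 0.16, edgeR adjusted p = 0.0285), a call that was lost without iso-osmolar replicate 1, 2 or 3 (adjusted p = 0.0568, 0.0561 and 0.0721) and without replicate 1 or 2 at 600 mOsm (0.105 and 0.0829). The 2 intensities were not told apart (-0.19, 95% interval -0.55 to 0.17, edgeR adjusted p = 0.439). Psmd8, a proteasome subunit gene, ends 4347 bases upstream on the same strand and was at 136, 134 and 148 CPM in the 3 treatments.

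Summed Spred FPKM was 22.6 ± 0.540 in the control, 16.3 ± 0.551 at low intensity and 12.4 ± 0.638 at high intensity (SD, n = 3). Spred2 held 61.7%, 63.1% and 66.9% of it in the 3 treatments, followed by Spred1 and then Spred3 in each.

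Within the PEA3 group the outcome was split, as Etv5 fell and Etv4 did not pass the test. Etv5 (chromosome 16, 22381309 to 22439719, minus strand), whose protein drives ERK-dependent growth programs, was at 30.6, 26.9 and 25.1 CPM in the iso-osmolar libraries, 11.6, 10.6 and 12.1 CPM at 500 mOsm and 9.54, 7.79 and 7.97 CPM at 600 mOsm. None of the treatments overlapped. Etv5 fell by 1.27 on the log2 scale at 500 mOsm (SE 0.10, edgeR adjusted p = 1.36e-06) and by 1.71 at 600 mOsm (SE 0.11, edgeR adjusted p = 1.69e-07), to 41.5% and 30.7% of the iso-osmolar level. Between the intensities its log2 fold change was -0.44 (SE 0.11, edgeR adjusted p = 0.0105). The Etv5 window printed above belongs to 1 of the gene's 2 annotated start regions, and the counts do not say which start was used.

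Etv4 (chromosome 11, 101769742 to 101785371, minus strand), a paralog that shares the ETS domain, was at 93.5, 114 and 106 CPM in the iso-osmolar libraries, 93.8, 115 and 86.5 CPM at 500 mOsm, and 98.8, 89.4 and 99.3 CPM at 600 mOsm. The treatments overlapped. The log2 fold change was -0.09 at 500 mOsm (95% interval -0.30 to 0.12, edgeR adjusted p = 0.553) and -0.13 at 600 mOsm (95% interval -0.34 to 0.09, edgeR adjusted p = 0.342), so a fall of the size of that of Etv5 lay outside both intervals. Under the GC content and length correction Etv4 was lower in both comparisons, by the smaller changes of -0.29 (adjusted p = 0.00198) and -0.23 (adjusted p = 0.0122). As shares of summed Etv FPKM, Etv4 went from 86.2% ± 2.31 to 93.3% ± 1.26 and 94.9% ± 0.471, while Etv5 went from 13.8% ± 2.35 to 6.65% ± 1.26 and 5.03% ± 0.446 (SD, n = 3). Etv1 (chromosome 12, 38779380 to 38868215, plus strand) was at 0, 3 and 4 counts in the iso-osmolar libraries, 1, 3 and 3 at 500 mOsm and 5, 3 and 3 at 600 mOsm, at or near the detection limit in each, and no fold change is given.

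**Figure D3:**
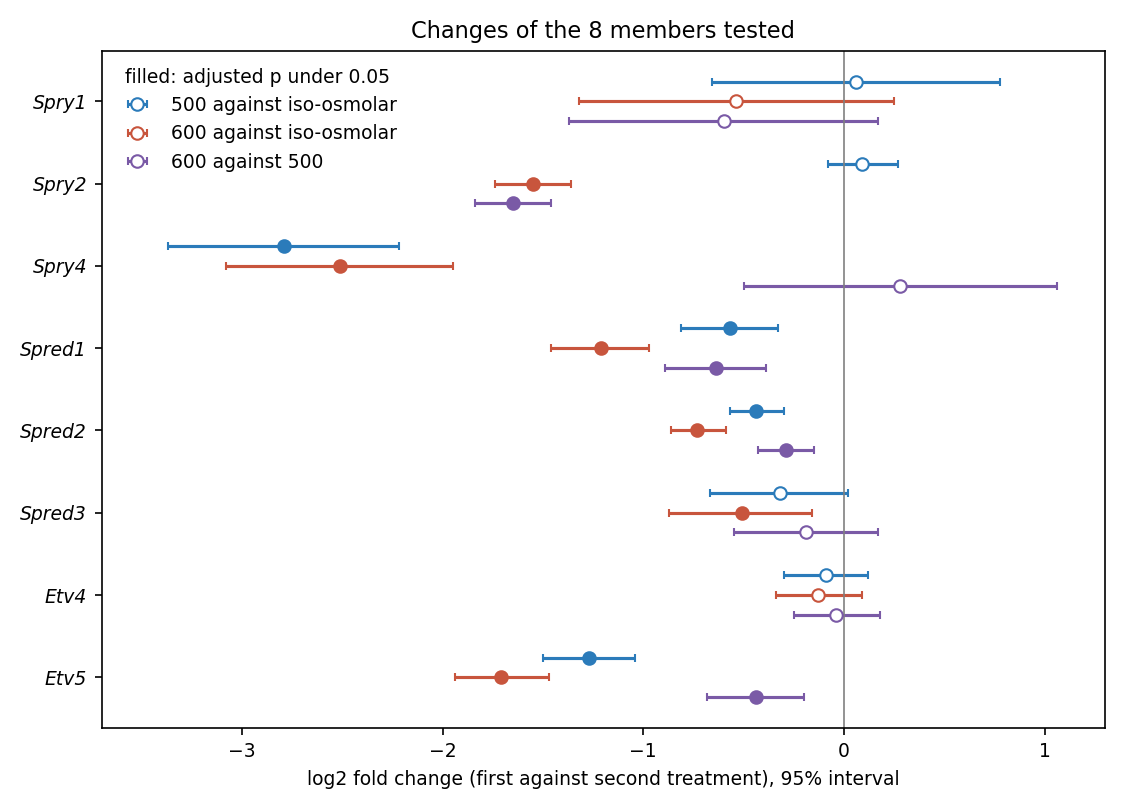
Log2 fold changes (points) with 95% intervals (bars) of the 8 genes tested, for 500 mOsm against iso-osmolar medium, 600 mOsm against iso-osmolar medium and 600 against 500 mOsm, filled where the adjusted p was under 0.05. Spry4 shows the largest falls (-2.79 and -2.51) and no difference that passed between the intensities, Spry2 passes only where 600 mOsm is compared, and the Etv4 intervals include 0.

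By FPKM, Etv4 was the most abundant member in every treatment (43.9 ± 4.03, 41.1 ± 5.69 and 39.6 ± 1.69 FPKM), above 94.8%, 94.5% and 94.4% of all genes in the table. In iso-osmolar medium Spred2 (13.9), Spry2 (12.4), Spred1 (7.01) and Etv5 (6.96 FPKM) followed, then Spred3 (1.65), Spry4 (0.420), Spry1 (0.222) and Etv1 (0.0222). Spred1 and Etv5 overlapped there between libraries, and all other neighbours in this order were separate. At 500 mOsm Spry2 (13.2 FPKM) stood above Spred2 (10.3) and Spry1 (0.230) above Spry4 (0.0595), each without overlap. At 600 mOsm Spred2 (8.31 FPKM) was again above Spry2 (4.16), and Spry1 (0.153) and Spry4 (0.0706) overlapped.

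Other output genes of the ERK pathway, a list of 18 that holds immediate early and delayed genes, were split at low intensity and mostly lower at high intensity. With 500 mOsm 7 of the 18 were lower and 6 higher than the control, beside 14.8% and 13.2% of all genes tested, with a median log2 fold change of -0.08. At 600 mOsm 14 were lower and 0 higher, beside 20.0% and 15.1%, with a median of -0.91. Between the intensities 12 were lower at 600 mOsm and 1 was higher, beside 17.2% and 11.9%, and the GC content and length correction gave 12 and 3. Fos, the immediate early AP-1 gene, stood at 2.84 ± 0.276 CPM in the control, rose by a log2 fold change of 3.81 (SE 0.10, edgeR adjusted p = 6.07e-11) at 500 mOsm, and was at 2.53 ± 0.226 CPM at 600 mOsm. Ier3, an immediate early survival gene, behaved alike at 500 mOsm, from 128 ± 4.69 to 911 ± 64.2 CPM (log2 fold change 2.83, edgeR adjusted p = 1.05e-11), and lay at 46.5 ± 3.14 CPM at 600 mOsm (-4.29 against 500 mOsm). The zinc finger gene Egr2 was at 3.07 ± 0.331 CPM in the control and 9.01 ± 0.983 CPM at 500 mOsm, and its log2 fold change at 600 mOsm was -1.67 (SE 0.18, edgeR adjusted p = 1.64e-05). Egr3, in contrast, fell at both intensities, from 23.9 ± 2.39 to 3.94 ± 0.250 and 3.54 ± 0.391 CPM, with log2 fold changes of -2.60 and -2.75 (edgeR adjusted p = 5.45e-09 and 6.31e-09). Spry4, Spred1, Spred2 and Etv5 thus fell at 500 mOsm in the same direction as Egr3 and the ERK phosphatase gene Dusp5 and opposite to Fos and Ier3. Among the genes tested, those whose log2 CPM over the 9 libraries was most like Spry2 (Pearson r, a description over 9 libraries that share treatments) were Nr4a1 (r = 0.996), Gfod1 (0.995) and Myc (0.995), where Nr4a1 encodes an immediate early nuclear receptor and Myc a growth regulator on the ERK output list. Myc was at 309, 319 and 116 CPM in the 3 treatments. Those most like Spred2 were Pmepa1 (0.990), Hivep3 (0.989) and Cbl (0.984), and those most like Etv4 were Pomgnt1 (0.966), Dnajb1 (0.949) and Mapkapk2 (0.924).

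**Figure D4:**
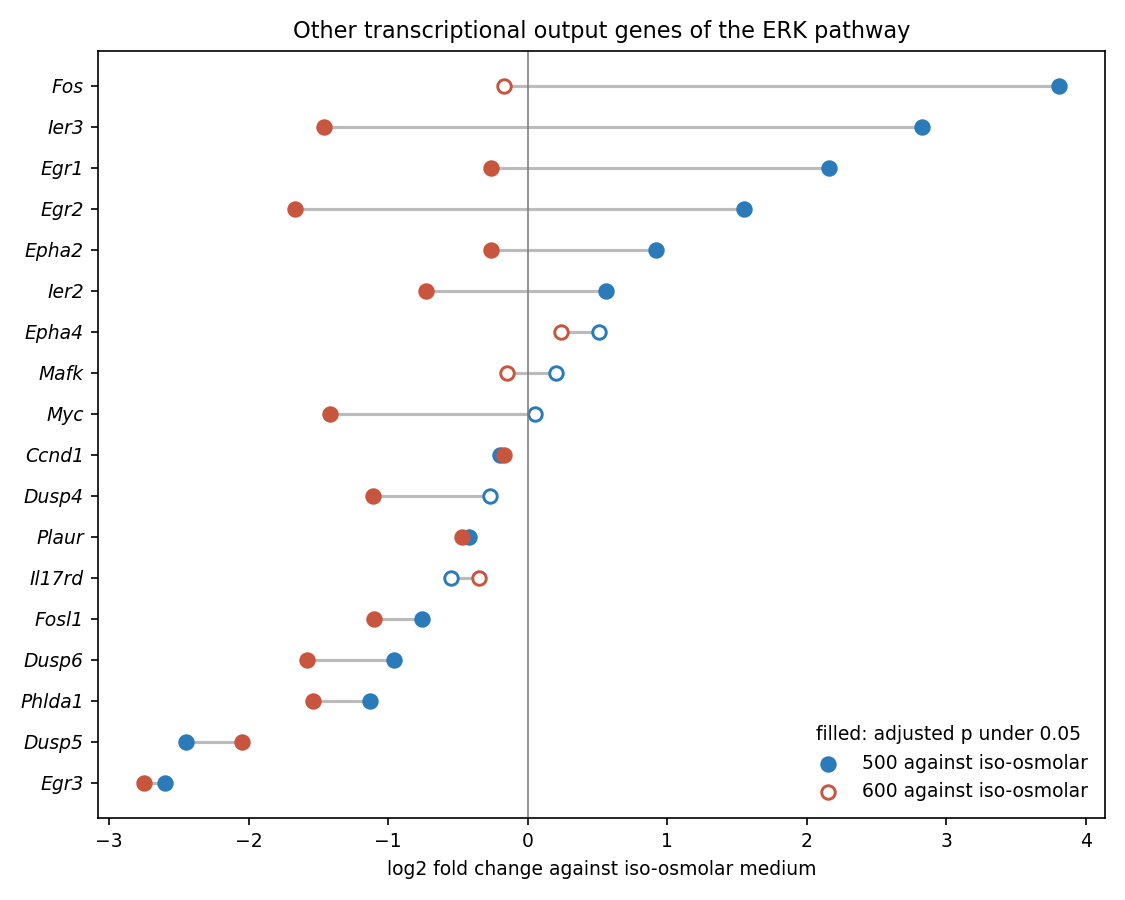
Log2 fold changes of the 18 other ERK output genes against iso-osmolar medium at 500 mOsm (blue) and 600 mOsm (red), joined for each gene and filled where the adjusted p was under 0.05. Fos (3.81) and Ier3 (2.83) lie far right at 500 mOsm, whereas Egr3 and Dusp5 lie at or below -2 at both intensities.

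Among 16 other brakes on the pathway, such as Ras GTPase-activating proteins and ERK phosphatases, 8 were lower and 1 higher at 500 mOsm (median log2 fold change -0.39), and 11 lower and 2 higher at 600 mOsm (-0.88). The shares of all genes tested were 14.8% lower and 13.2% higher at 500 mOsm and 20.0% and 15.1% at 600 mOsm, so the brakes called higher were no larger a share than the background. Between the intensities 8 were lower at 600 mOsm and 2 higher, beside 17.2% and 11.9% of all genes, and 6 and 5 under the GC content and length correction. Dusp5, a nuclear ERK phosphatase that is also on the output list, went from 161 ± 8.21 CPM to 29.4 ± 0.346 at 500 mOsm and 38.9 ± 2.18 at 600 mOsm (log2 fold changes -2.45 and -2.05, edgeR adjusted p = 1.90e-11 and 2.74e-10). Dusp6, the cytoplasmic ERK phosphatase, was at 80.6 ± 4.45 CPM in the control and 41.4 ± 3.48 CPM at 500 mOsm, a log2 fold change of -0.96 (edgeR adjusted p = 1.35e-06). Errfi1, a feedback inhibitor of the EGF receptor, fell by 1.62 on the log2 scale at 600 mOsm (edgeR adjusted p = 8.19e-09) and had a log2 fold change of -1.25 between the intensities. Nf1, which encodes neurofibromin, the partner of Spred1 and Spred2, was at 38.8 ± 4.34, 36.8 ± 6.85 and 22.6 ± 3.40 CPM, and its log2 fold change between the intensities was -0.70. Cblb, an E3 ligase for receptors, went from 19.1 ± 2.39 to 9.98 ± 0.587 and 6.28 ± 0.388 CPM. Dusp4, Dusp5, Dusp6 and Il17rd are counted in both lists.

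In the 19 genes of the Ras to ERK core, 0 fell and 1 rose at 500 mOsm, while 8 fell and 2 rose at 600 mOsm. Beside these stand 14.8% lower and 13.2% higher of all genes at 500 mOsm, and 20.0% and 15.1% at 600 mOsm, and the 2 that rose are a share below that background. They became 4 without the filter on low counts and 4 under the GC content and length correction. The gene higher at 500 mOsm was Gab1, a docking protein for receptors, with a log2 fold change of 0.72 (edgeR adjusted p = 6.31e-07), from 33.9 ± 0.375 to 55.8 ± 1.76 CPM. Sos2 and Sos1, exchange factors that load Ras with GTP, and Frs2, the docking protein of FGF receptors, were lower at 600 mOsm, with log2 fold changes of -1.07, -0.60 and -0.65 (edgeR adjusted p = 0.00108, 0.00106 and 3.34e-04).

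Genes for proteins that act on Etv factors were also read, and 7 of the 8 listed symbols were in the table. The remaining symbol, Cop1, names the same E3 ligase subunit gene as its older symbol Rfwd2, which was in the table, so no listed gene was missing. At 500 mOsm 3 were lower and 1 higher, and at 600 mOsm 5 were lower and 1 higher, with medians of -0.10 and -0.73. Of all genes tested 14.8% were lower and 13.2% higher at 500 mOsm, and 20.0% and 15.1% at 600 mOsm, and with 7 genes a single call is already near the share higher. Under the GC content and length correction 5 were lower and 0 higher at 500 mOsm. Trib1 and Trib2, pseudokinases that bind the Cop1 ligase, fell at both intensities, Trib1 from 141 ± 3.51 to 75.3 ± 1.96 and 46.5 ± 3.54 CPM and Trib2 from 7.79 ± 0.529 to 2.38 ± 0.171 and 3.18 ± 0.314 CPM (SD, n = 3). Atxn1 and Atxn1l, partners of Capicua, were lower at 600 mOsm, Atxn1 with a log2 fold change of -1.10 (edgeR adjusted p = 7.68e-07). Its further fall between the intensities (-0.53) was lost under the GC content and length correction (-0.17, adjusted p = 0.12). Rfwd2 did not pass at either intensity, with means of 60.4, 61.1 and 59.5 CPM.

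The transcripts of the members differed in length, GC content and in how often they held ATTTA, a pentamer of AU-rich elements, which was counted as a description and not tested. The count covered the whole of the longest coding transcript of each gene. The median over all genes tested was 0.755 per kb. Etv4 held none in 2395 bases, and Etv5 held 6 in 3975 bases (1.51 per kb). Etv1 held the most, 18 in 6576 bases (2.74 per kb), more per kb than 95.5% of the genes tested. Spred1 held 15 in 6016 bases (2.49 per kb), more per kb than 93.4% of them. Spry4 held 8 (1.68 per kb), Spry2 3 (1.44 per kb), Spred2 5 (1.12 per kb), Spred3 3 (0.740 per kb) and Spry1 2 (0.721 per kb).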

How the data were processed

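RNA of wild type MEFs in iso-osmolar medium or at 500 or 600 mOsm was sequenced as 9 libraries. The authors' deposited table gives, for each library and gene, raw counts, and FPKM that the authors made from those counts and the gene length. Per the submitters' processing notes, CASAVA 1.8 and STAR were used with mm10, and the counting tool, its annotation and its strand setting are not given in the sources used here. The table also holds the authors' fold changes, p-values and group means, which were not used. Columns of all libraries were mapped to a treatment by their names.

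The quasi-likelihood test of edgeR 4.0.16 (R 4.3.3) was applied to the counts after TMM normalization, in a single fit to all 9 libraries. The 13082 genes that passed filterByExpr were tested, with Benjamini-Hochberg adjustment over all of them and a threshold of 0.05. Libraries varied by a common biological coefficient of 0.0756. The test was checked on simulated data. The members, the lists and the alternatives were chosen with earlier results of these data known. Named genes were the 9 members, the 3 genes of each list with the largest change past the threshold in each comparison, and the 3 genes most like the most abundant member of each family. Rfwd2 was added after its values were seen. No library pair differed by less than sampling noise. Promoter windows came from RefSeq tables on GRCm38.p6, and protein sequences were not analysed here. Alternatives were other normalizations and filters, DESeq2 1.42.0, limma 3.58.1 on log2(FPKM + 1) and log2(FPKM + 0.1), the replicate block, each library left out, and a correction for GC content and length added after the data were seen.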

Additional observations from a re-analysis of the deposited data

How the results depend on the processing

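The members' counts of lower and higher calls stayed within 1.5 times of the value given under every alternative run. With 1 library left out they were 4 to 5 lower at 500 mOsm, 5 to 6 lower at 600 mOsm and 4 to 4 lower at 600 against 500 mOsm. Of the member log2 fold changes, Spred3 at 600 mOsm against iso-osmolar passed in 14 of 20 alternatives. The number of list genes higher at 600 than at 500 mOsm, 5 in the values given, was 3 with library size alone, 3 with only the 2 treatments compared, 3 with limma on either FPKM scale, 2 with the replicate block, 2 to 6 with 1 library left out, 19 under the GC content and length correction and 18 with that correction and the replicate block.

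Directions turned in the following results, none of which passed the test. Spry1 at 500 mOsm was at 0.06 as given and -0.12 to 0.25 with 1 library left out, the lowest without iso-osmolar replicate 3. It was -0.11 under the GC content and length correction and -0.10 with that correction and the replicate block. Spred3 between the intensities ran from -0.34 to 0.01 with 1 library left out, the highest without replicate 2 at 500 mOsm. Etv4 between the intensities ran from -0.12 to 0.10 with 1 library left out. It was 0.10 without replicate 2 at 500 mOsm and 0.01 without replicate 2 at 600 mOsm. Under the GC content and length correction Etv4 was at 0.06, and at 0.07 with that correction and the replicate block. The GC content and length correction also made Etv4 and Spred3 pass at 500 mOsm and Etv4 at 600 mOsm, and ended Spred2 between the intensities, and the cause was not tested.

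Library numbers did not pair the samples, since same-numbered libraries correlated on average at -0.230 in their deviations. With the replicate block the genes called were 1681 lower and 1430 higher at 500 mOsm, 2273 and 1525 at 600 mOsm, and 1936 and 1153 between the intensities, and the block ended the call of Spred3 at 600 mOsm (-0.51, edgeR adjusted p = 0.0554). Spry1 and Spry4 have no value under the filter of at least 10 counts in every library. Depth limits Spry1, Spry4 and Etv1, which had under 50 counts in each library.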

Other observations

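Among 19 tested genes for receptors and ligands upstream of Ras, 8 were lower and 6 higher with 500 mOsm than in the control, 9 lower and 4 higher at 600 mOsm, and 7 lower and 2 higher at 600 than at 500 mOsm. Over all genes tested the shares lower and higher were 14.8% and 13.2%, 20.0% and 15.1%, and 17.2% and 11.9% in these comparisons, so the genes called higher at 600 mOsm are close to the background. Under the GC content and length correction the last count was 6 lower and 6 higher. Fgf2, a fibroblast growth factor, went from 3.56 ± 0.175 CPM to 0.595 ± 0.0556 at 500 mOsm and 0.637 ± 0.307 at 600 mOsm, log2 fold changes of -2.57 and -2.45 (edgeR adjusted p = 6.31e-06 and 1.13e-05). Fgf18, another growth factor of this family, rose to 5.12 ± 0.572 CPM at 500 mOsm from 1.17 ± 0.413, and was 0.486 ± 0.0199 CPM at 600 mOsm, a log2 fold change of -3.38 against 500 mOsm (edgeR adjusted p = 6.67e-07). Pdgfa, a ligand of PDGF receptors, was at 19.4 ± 0.724, 9.49 ± 0.906 and 7.84 ± 0.622 CPM.

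Among 14 tested ETS factors outside the PEA3 group, 5 were lower and 3 higher at 500 mOsm, and 8 lower and 1 higher at 600 mOsm, beside the same shares of all genes, with the 1 higher below the 15.1% of all genes. Ets1, a broadly expressed ETS factor, was at 132 ± 6.02 CPM in the control, 246 ± 7.86 at low intensity and 102 ± 6.65 at high intensity, a log2 fold change of 0.89 and then -1.27 between the intensities. Elk3, a ternary complex factor, fell at both intensities, from 110 to 75.9 ± 1.09 and 50.5 ± 0.700 CPM. Spi1 and Fgfr4 were at or under 0.0288 CPM in iso-osmolar medium, below the limit of 3 counts, and at 0.803 ± 0.202 and 0.594 ± 0.106 CPM at 500 mOsm, so no fold change is given for them.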
